A study of Mus musculus with 4 samples.

Results

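Hepcidin is the liver hormone that sets how much iron enters the blood, and 10 genes of hepcidin production and iron handling were examined in mouse liver: Hamp, Hamp2, Hfe2 (Hjv in current naming), Tfr2, Tfrc, Slc40a1, Slc11a2, Fth1, Ftl1 and Bmp6. They were found by the gene name in the array files or by the current symbol of the probe's accession. The files held 13 probes for these genes among 41174 probes in all, and all 10 genes passed the filters on signal, among 18045 genes tested. The livers came from male C57BL/6 mice on a high-fat diet that received 25 mg/kg of an oligonucleotide into the abdomen, 2 injections a week for 4 weeks. In 4 mice this was labelled Plin2-ASO, an antisense strand that pairs with the transcript of the lipid droplet protein perilipin 2, and in 4 mice it was a scrambled control. An injected oligonucleotide is not restricted to a cell type, and the ages of the mice are not given in the sources used here. Each of 4 arrays held 1 mouse of each group, with mice 6, 7, 9 and 10 (Plin2-ASO label) set against mice 1, 2, 4 and 5 (control) on arrays 1 to 4.

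Values are log2 ratios of the livers labelled Plin2-ASO over the control livers, so a negative value means a lower level in the livers labelled Plin2-ASO. Plin2 itself, the target, was not lower: its log2 ratios were 0.24, 0.15, 0.83 and 0.36 on arrays 1 to 4 (mean 0.40 ± 0.15, SE, n = 4, adjusted p = 0.156 by limma). The label is therefore not borne out by its target, and every direction below would be mirrored if the dyes or the labels had been exchanged. All arrays had the control liver in red (Cy5) and the liver labelled Plin2-ASO in green (Cy3), so the treatment and the dye bias of a probe cannot be told apart. Array 3 stood apart, with a mean correlation of 0.33 across genes with the other arrays, against 0.52 to 0.65 for those. Of its spots, 7.61% were marked as outliers, against 1.5% to 3.83%. Its median raw signal was 244 in the liver labelled Plin2-ASO against 637 in the control liver. On arrays 1, 2 and 4 these medians were 330 against 375, 392 against 256 and 499 against 260. The part of this imbalance in the array 3 values was not tested. In sum, adipocyte markers stood apart on array 3 too. The summed signal of 6 of them was 7286, 14593, 69333 and 14038 in mice 6, 7, 9 and 10 (Plin2-ASO label), against 29243, 32408, 16848 and 18137 in mice 1, 2, 4 and 5 (control). The log2 ratio of the sums was 2.04 on array 3, against -2.005 to -0.37 on the others. By limma 1 of the 6 rose, Cfd, and none fell, a share of 16.7% beside 9.76% of all genes. At an unadjusted p under 0.05, 1 was higher and 1 lower. Cfd was higher on every array (1.1, 3.64, 6.45 and 3.91). On array 3, Adipoq read 4.1, Plin1 1.96, Fabp4 1.69, Cidec 0.04 and Lep -0.13, so the sum does not describe every marker. The part of such cells in the array 3 values below was not tested. Liver identity was checked with 8 hepatocyte markers, of which 7 were tested. Their summed signal, over the 6 measured on every array, was 377690 to 508953 in the livers labelled Plin2-ASO and 671873 to 723889 in the control livers. Of the 7, Alb and Apob fell (mean log2 ratios -1.70 and -0.61) and none rose by limma, a share of 28.6%, beside 9.76% of all genes. At an unadjusted p under 0.05, 4 were lower and none higher. Alb fell most, while Ttr averaged -0.04 and Tat 0.27, so the sum does not describe every marker. In whole liver, fewer cells of a type and less RNA per cell cannot be told apart.

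As background, hepcidin binds the iron exporter ferroportin (Slc40a1) and removes it from the cell surface, which holds iron inside macrophages, gut cells and hepatocytes. Hepatocytes transcribe Hamp when bone morphogenetic proteins, chiefly BMP6 and BMP2 from sinusoidal endothelial cells, act through the co-receptor hemojuvelin (Hfe2) and SMAD proteins, and when interleukin 6 acts through STAT3. Mice carry a second gene, Hamp2, beside Hamp, and in mice overexpression of Hamp1, but not of Hamp2, has been found to cause iron deficiency. Inside cells, iron is taken up by transferrin receptors (Tfrc, Tfr2) and the ferrous iron transporter Slc11a2 and stored in a shell of ferritin heavy and light chains (Fth1, Ftl1). Iron regulatory proteins govern the stability of the Tfrc transcript and the translation of the ferritins, and the second of these controls is not read by an RNA array.

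The array carried 1 probe for each hepcidin gene, and the sequences are shown because the pair is closely related and the results below differ between them. The probes lie on the minus strand of chromosome 7 in mouse build mm7, at chr7:27882251-27882310 for Hamp and chr7:27862281-27862340 for Hamp2. Capitals mark the bases that differ between them when they are aligned without gaps.
Hamp probe: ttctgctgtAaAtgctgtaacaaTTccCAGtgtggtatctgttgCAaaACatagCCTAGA
Hamp2 probe: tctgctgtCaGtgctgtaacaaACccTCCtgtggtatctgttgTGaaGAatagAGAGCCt
Of 59 aligned bases 17 differed, an identity of 71.2%. Cross-reaction between them was not tested.

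The stretches upstream of the annotated start sites of the pair are shown because the SMAD and STAT3 inputs meet there. They come from the RefSeq promoter table in build GRCm38.p6, minus strand, chr7:30944078-30944178 for Hamp and chr7:30924227-30924327 for Hamp2. Capitals mark the six-letter motif GGCGCC, the core of the BMP-responsive element described for hepcidin promoters, or the bases aligned to it, and the STAT-like motif TTCNNNGAA.
Hamp upstream: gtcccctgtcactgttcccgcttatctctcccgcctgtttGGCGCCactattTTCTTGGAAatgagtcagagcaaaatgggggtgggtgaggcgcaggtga
Hamp2 upstream: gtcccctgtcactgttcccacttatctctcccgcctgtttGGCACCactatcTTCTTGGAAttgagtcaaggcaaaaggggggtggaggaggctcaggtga
Over 247 aligned bases of the 250 upstream, the promoters were 91.9% identical, so the pair resemble each other more upstream than in their probes. Within the motif they differed by G4A, counted from 1 at the 5′ end of its bases, with the base of Hamp first. Hamp held GGCGCC from position -109 relative to the annotated start and Hamp2 held no GGCGCC in the 250 upstream bases. Both held TTCNNNGAA, from position -97 in Hamp and -94 in Hamp2. Each motif equals its own reverse complement, so a match counts for both strands, and the motifs do not overlap here. Of 32851 promoter windows in the table, 9.59% held GGCGCC, 7.02% held TTCNNNGAA and 0.368% held both. Windows were matched for 7 of the 10 genes, and of these Tfrc also held GGCGCC, in 1 of its 2 windows. A match describes letters and does not show that a factor binds.

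Of the 10 genes, 2 fell in the livers labelled Plin2-ASO and none rose, at an adjusted p under 0.05 by limma with Benjamini-Hochberg adjustment over all genes. The genes that fell were Tfrc, the receptor that takes up transferrin-bound iron, and Fth1, the ferritin heavy chain. At an unadjusted p under 0.05, 1 was higher and 4 were lower. The background was 9.76% of all genes called, 3.69% higher and 6.07% lower, so with 10 genes the count by itself sets them little apart. The median log2 ratio of the 10 was -0.14, against -0.03 over all genes tested. Neither gene passed without array 1 or without array 2, when 2.16% and 2.12% of all genes were called. Without array 3, 4 of the 10 passed: Tfr2 was higher and Hamp, Tfrc and Fth1 were lower. In that fit 33.3% of all genes were called, 12.5% higher and 20.8% lower. Without array 4, when 6.67% of all genes were called, Tfr2 was higher and Fth1 was lower.

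**Figure D1:**
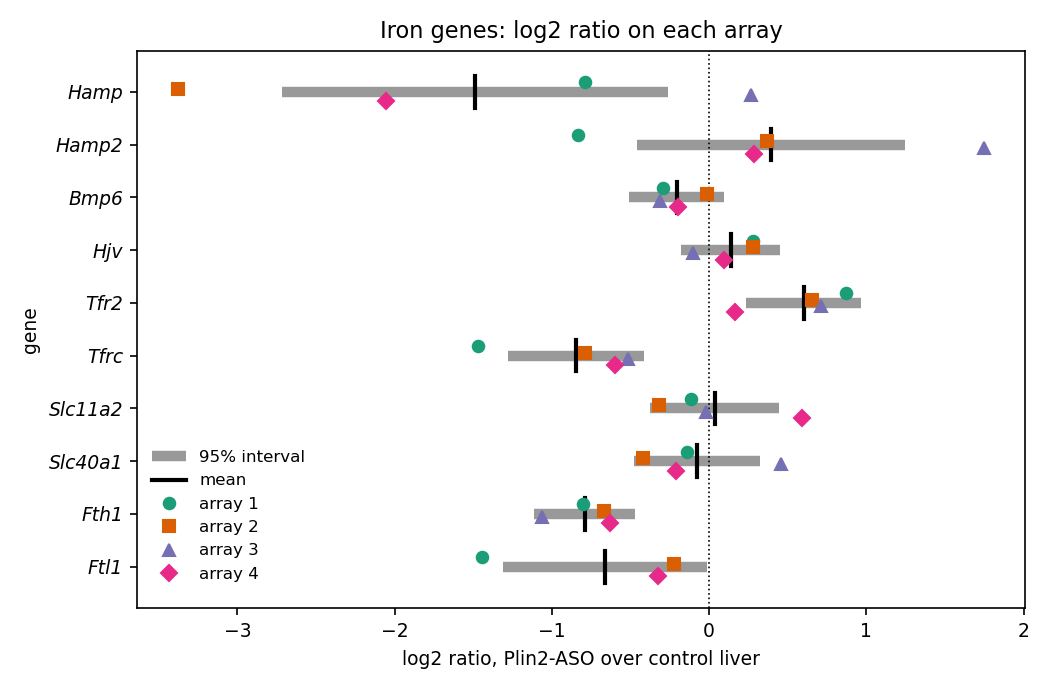
Log2 ratio of the livers labelled Plin2-ASO over the control livers (horizontal axis) for each gene (rows). Symbols are the 4 arrays, black ticks the means and grey bars the 95% intervals of the limma fit; Ftl1 has 3 arrays. Hamp and Hamp2 spread far more widely than the other genes, Tfrc and Fth1 lie below 0 on all 4 arrays, and Tfr2 lies above 0 on all 4.

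Hamp, the gene of the active hormone, had the lowest mean of the 10 genes but did not pass the test. Its normalized log2 signal was 14.87, 13.28, 16.01 and 14.28 in mice 6, 7, 9 and 10 (Plin2-ASO label), against 15.66, 16.65, 15.74 and 16.33 in mice 1, 2, 4 and 5 (control). Mice 6, 7 and 10 lay below every control liver, while mouse 9 of array 3 lay within the control range, so the groups overlapped. The log2 ratios on arrays 1 to 4 were -0.79, -3.38, 0.26 and -2.05. The mean was -1.49 ± 0.52 (SE, n = 4), 2.81-fold lower, and its 95% interval was -2.72 to -0.26. The adjusted p was 0.123 by limma. The spread between arrays was wide. The standard deviation of its ratio was 1.58, larger than that of 99.7% of the 16133 genes measured on every array, whose median was 0.32. Without array 3 the mean was -2.07 (adjusted p = 0.00648), and without array 2 it was -0.86 (adjusted p = 0.367). Under median centring in place of loess it was -1.59 with an adjusted p of 0.0457.

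Hamp2 gave a different pattern over the same arrays. Its normalized log2 signal was 12.16, 12.01, 13.67 and 12.1 in mice 6, 7, 9 and 10 (Plin2-ASO label), against 12.99, 11.64, 11.92 and 11.82 in mice 1, 2, 4 and 5 (control). Its highest livers were mouse 9 among those labelled Plin2-ASO and mouse 1 among the controls, and the groups overlapped. The log2 ratios were -0.83, 0.37, 1.75 and 0.29, with a mean of 0.39 ± 0.36 (SE, n = 4, adjusted p = 0.53), and the standard deviation of 1.06 was larger than that of 99.1% of genes. Without array 3 the mean was -0.06.

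The ratio of Hamp minus that of Hamp2 was 0.04, -3.75, -1.48 and -2.34 on arrays 1 to 4. The mean difference was -1.88 ± 1.59 (SD, n = 4), negative on 3 of 4 arrays, with p = 0.25 by an exact two-sided sign-flip permutation test, for which 4 arrays allow no p under 0.125. A difference between the pair was therefore not established, although on array 2 Hamp was far lower and Hamp2 slightly higher in the same liver.

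**Figure D2:**
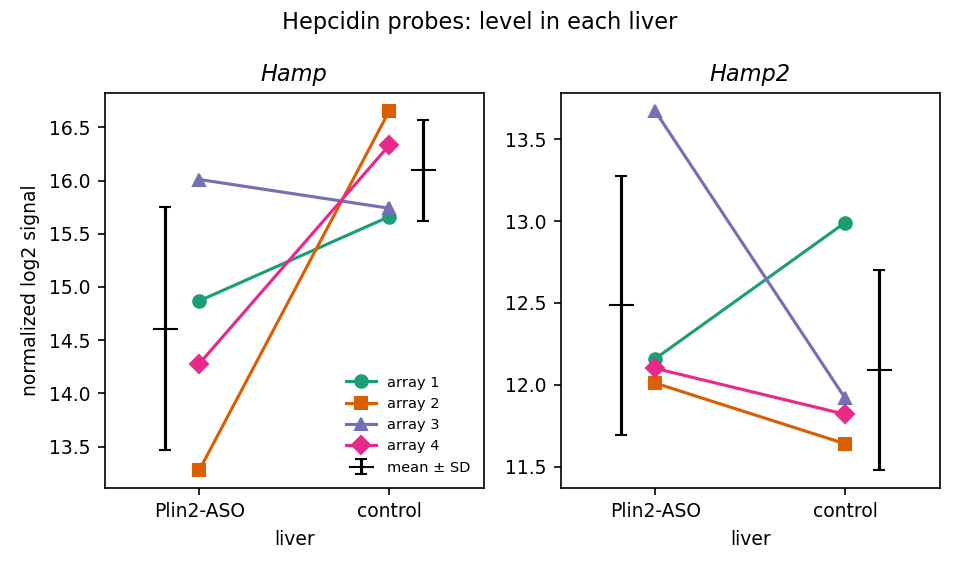
Normalized log2 signal (vertical axes, each with its own range) of the Hamp and Hamp2 probes in each liver, with livers labelled Plin2-ASO at left and control livers at right. Lines join the livers of 1 array and black bars give the mean ± SD of 4 livers; the Hamp line falls toward the left on arrays 1, 2 and 4 and not on array 3, and the Hamp2 line does so on array 1 alone.

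The upstream signal genes among the 10 moved little. Bmp6, the ligand, had log2 ratios of -0.29, -0.01, -0.32 and -0.20 by its brighter probe, with a mean of -0.21 ± 0.13 (SE, n = 4, adjusted p = 0.349). Its second probe, well above background on 3 of 4 arrays in each group, averaged -0.02. Hjv (Hfe2), the co-receptor that hepatocytes carry, had ratios of 0.28, 0.28, -0.10 and 0.09, with a mean of 0.14 ± 0.13 (adjusted p = 0.558) and a 95% interval of -0.18 to 0.45. The interval of Bmp6 was -0.51 to 0.10. Sinusoidal endothelial cells make most BMP6. The summed signal of 11 of their markers was 19343 to 27276 in the livers labelled Plin2-ASO and 28637 to 42267 in the control livers. Of the 11, 4 fell and none rose by limma, a share of 36.4% beside 9.76% of all genes. At an unadjusted p under 0.05, 5 were lower and none higher. The part of endothelial cells in the Bmp6 values was not tested.

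Among genes that SMAD proteins switch on in the liver, Id1, Id3 and Smad6 fell. Of 8 tested, 3 fell and none rose by limma (4 lower and none higher at an unadjusted p under 0.05). The share called was 37.5%, beside 9.76% of all genes, a difference that was not tested, and the median log2 ratio was -0.47, against -0.03 over all genes tested. Id1, an inhibitor of helix-loop-helix factors and a standard readout of BMP signalling in hepatocytes, had ratios of -1.75, -1.73, -0.32 and -1.72, with a mean of -1.38 ± 0.26 (SE, n = 4, 2.60-fold lower, adjusted p = 0.021). Arrays 1, 2 and 4 lay close together and array 3 stood apart nearer to 0. Id3, of the same family, had even ratios of -0.86, -0.79, -0.97 and -0.79 (mean -0.85 ± 0.12, adjusted p = 0.00883). Smad6, an inhibitory SMAD that feeds back on the pathway, was lower by 0.99, 0.67, 0.81 and 0.38 on arrays 1 to 4 on the log2 scale (mean -0.71 ± 0.15, adjusted p = 0.0282). The call of Smad6 ended under median centring (adjusted p = 0.0886) and with the scanning software's ratios (0.0538).

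Smad7, the other inhibitory SMAD, had ratios of -0.60, -0.89, 0.74 and -1.31 and did not pass (mean -0.51 ± 0.31, adjusted p = 0.332). Its only positive value was on array 3, as for Hamp, and without array 3 it averaged -0.93 (adjusted p = 0.00373). The transcription factor Atoh8 averaged -0.17 (adjusted p = 0.602) and Id2 0.28 (adjusted p = 0.65). Without array 1 and without array 2 none of the 8 passed by limma (3 lower at an unadjusted p under 0.05 each time). In these fits 2.16% and 2.12% of all genes were called. Without array 3 there were 6 that fell, in a fit that called 33.3% of all genes, 20.8% of them as lower and 12.5% as higher. The summed signal of the endothelial markers given above was also lower in the livers labelled Plin2-ASO, where 4 of the 11 markers fell by limma. Id1, Id3, Smad6 and Smad7 are also made by endothelial cells. The part of endothelial cells in these values was not tested.

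**Figure D3:**
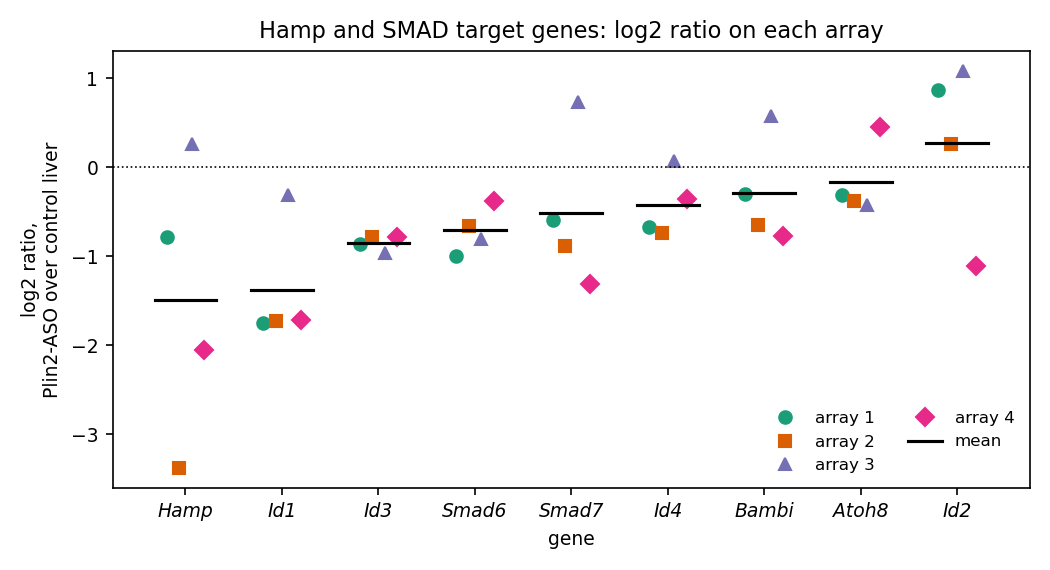
Log2 ratio of the livers labelled Plin2-ASO over the control livers (vertical axis) for Hamp and the 8 SMAD target genes (horizontal axis), with a symbol for each array and a black line for the mean. Id1, Id3 and Smad6 lie below 0 on every array. The array 3 values of Hamp, Id1, Id2, Smad7, Id4 and Bambi lie above those of the other arrays.

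The genes that carry or modulate the BMP signal were mostly near 0. Of 18 tested, 1 fell and none rose by limma, a share of 5.56% beside 9.76% of all genes. At an unadjusted p under 0.05, 3 were lower and 1 higher, and the median log2 ratio was -0.03. The gene that fell was the ligand Bmp7 (-0.82 ± 0.16, SE, n = 4, adjusted p = 0.0229). Tmprss6, the protease that cleaves hemojuvelin and so restrains hepcidin, averaged 0.17 ± 0.15 (adjusted p = 0.517), and Hfe, the hemochromatosis protein that acts with TFR2, averaged -0.18 ± 0.14 (adjusted p = 0.433). Bmp2, the other main ligand from endothelial cells, had ratios of -0.87, -0.81, -0.02 and -0.29 (mean -0.50 ± 0.18, adjusted p = 0.13) and was singled out after its values were seen. Erfe, the erythroid hormone that lowers hepcidin, had no probe past the background filter.

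In the interleukin 6 and STAT3 input, 1 of 8 genes tested rose and none fell by limma. This was a share of 12.5%, beside 9.76% of all genes. At an unadjusted p under 0.05, 4 were higher and none lower, and the median log2 ratio was 0.26. The gene that rose was Tyk2, a receptor-associated kinase (0.71 ± 0.15, adjusted p = 0.028). The receptor chain Il6ra had ratios of 0.74, 1.30, 0.07 and 1.33 and missed the threshold (mean 0.86 ± 0.23, adjusted p = 0.0573); without array 3 it averaged 1.12 (adjusted p = 0.00151). Stat3 averaged 0.05 ± 0.22 (adjusted p = 0.901), and Socs3, which STAT3 induces, averaged -0.33 ± 0.14 (adjusted p = 0.192). Il6 itself had no probe past the background filter.

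Of the transferrin receptors, Tfr2, which hepatocytes use as a sensor of iron-loaded transferrin, was higher on every array but narrowly missed the threshold. Its normalized log2 signal was 14.57, 14.28, 14.46 and 14.14 in mice 6, 7, 9 and 10 (Plin2-ASO label), against 13.7, 13.62, 13.75 and 13.97 in mice 1, 2, 4 and 5 (control). The groups did not overlap, which was so for 17.8% of all genes, 6.97% with the livers labelled Plin2-ASO higher and 10.9% with them lower. The log2 ratios were 0.87, 0.65, 0.71 and 0.17, with a mean of 0.60 ± 0.15 (SE, n = 4, 1.52-fold higher, adjusted p = 0.0554). Its adjusted p was 0.315, 0.249, 0.0256 and 0.0453 with arrays 1, 2, 3 and 4 left out in turn, so it passed in the last 2 fits.

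Tfrc, the uptake receptor whose transcript iron regulatory proteins stabilise when iron is scarce, fell. Its normalized log2 signal was 8.83, 9.99, 9.19 and 9.13 in mice 6, 7, 9 and 10 (Plin2-ASO label), against 10.3, 10.78, 9.71 and 9.73 in mice 1, 2, 4 and 5 (control). Each liver labelled Plin2-ASO lay below the control liver of its own array, but mouse 7 lay above control mice 4 and 5, so the groups overlapped. The array held 10 spots of the Tfrc probe, which gives the error among spots within an array. The spots of an array share the same labelled samples. Their spread therefore leaves out errors of labelling and hybridization and the dye bias of the probe. Mean ratios were -1.47, -0.79, -0.52 and -0.60 on arrays 1 to 4, while the SD among the 10 spots of an array was 0.06 to 0.12. The highest single spot of all was at -0.35, so none lay above 0, and the difference between arrays was several times the error among spots. The mean was -0.84 ± 0.18 (SE, n = 4, 1.80-fold lower, adjusted p = 0.0335 by limma). The call ended without array 1 (adjusted p = 0.177), without array 2 (0.154), without array 4 (0.0527), under median centring (0.0581), with the scanning software's ratios (0.054) and with unpaired channels (0.0946), with every mean still negative.

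Tfrc is also abundant in maturing red cells. Of 11 erythroid markers, 6 were tested: 2 rose, Alas2 and Klf1, and none fell by limma, a share of 33.3% beside 9.76% of all genes. Hba-a1, the brightest of the 6, did not pass (mean log2 ratio 0.59, adjusted p = 0.212 by limma). Hemgn averaged 0.09, Slc4a1 -0.12 and Ermap -0.17, and these did not pass either. The summed signal of the 6 was 60980 to 147634 in the livers labelled Plin2-ASO and 52692 to 90571 in the control livers. The log2 ratio of those sums was 0.48, -0.13, 0.70 and 1.47 on arrays 1 to 4, and the part of erythroid cells in the Tfrc values was not tested.

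The membrane transporters of iron did not pass. Slc40a1 (ferroportin), the exporter that hepcidin removes, had normalized log2 signals of 11.66, 11.71, 12.42 and 11.76 in mice 6, 7, 9 and 10 (Plin2-ASO label), against 11.8, 12.13, 11.97 and 11.97 in mice 1, 2, 4 and 5 (control). Mouse 9 was the highest of all 8 livers, and the other livers labelled Plin2-ASO lay just below the controls. Its mean log2 ratio was -0.08 ± 0.17 (SE, n = 4, adjusted p = 0.81), with a 95% interval of -0.48 to 0.32. Slc11a2 (DMT1), which moves ferrous iron across membranes, was read by 3 probes along the minus strand of chromosome 15. Their mean log2 ratios were 0.04 at chr15:100395330-100395389, -0.14 at chr15:100378161-100378220 and -0.03 at chr15:100373147-100373206 (mm7), with adjusted p-values of 0.92, 0.631 and 0.913 in the fit over all kept probes. No end of the gene stood apart from the others.

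Of the ferritins, Fth1, the chain with the ferroxidase activity, fell by a similar amount on every array. Its normalized log2 signal was 16.06, 16.26, 15.77 and 16.25 in mice 6, 7, 9 and 10 (Plin2-ASO label), against 16.86, 16.93, 16.83 and 16.88 in mice 1, 2, 4 and 5 (control). The groups did not overlap, which was so for 10.9% of all genes with the livers labelled Plin2-ASO lower. The control livers lay close together. The log2 ratios were -0.81, -0.67, -1.06 and -0.63, with a mean of -0.79 ± 0.14 (SE, n = 4, 1.73-fold lower, adjusted p = 0.0152 by limma). The call ended without array 1 (adjusted p = 0.122), without array 2 (0.0907) and with the scanning software's ratios, where the mean was -0.52 (adjusted p = 0.0894). The hepatocyte marker sums given above, in which Alb fell most, were lower in the same livers. The part of hepatocytes in this value was not tested.

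Ftl1, the light chain, which helps to lay down the iron core, was measured on 3 arrays because its spot on array 3 was marked as an outlier. Its normalized log2 signal was 16.02, 16.85 and 16.78 in mice 6, 7 and 10 (Plin2-ASO label), against 17.46, 17.07 and 17.11 in mice 1, 2 and 5 (control). The log2 ratios were -1.44, -0.22 and -0.33 on arrays 1, 2 and 4, with a mean of -0.66 ± 0.27 (SE, n = 3, adjusted p = 0.179). With the outlier spot kept, array 3 read -2.33 and the mean was -1.08 (adjusted p = 0.109). A further probe, named Ftl2 in the files and listed there with an accession of Ftl1 beside its own, is not one of the 10 genes; it read -0.84, -0.11, -1.5 and 0.01. Light chain ratios were therefore low on array 1 by both probes and nearer to 0 on arrays 2 and 4. On array 3 the Ftl2 probe was low, and the Ftl1 probe was low only with its outlier spot kept. Mouse ferritin genes have many near-identical pseudogene copies, so which of them these probes read is uncertain.

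**Figure D4:**
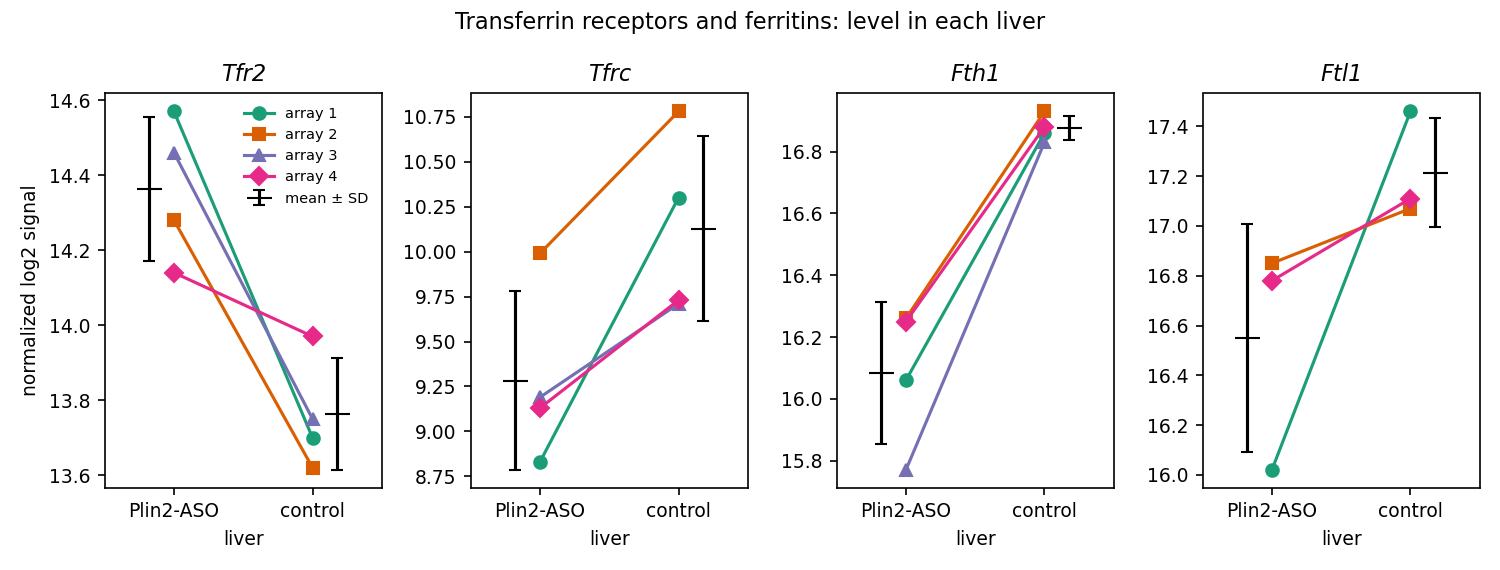
Normalized log2 signal (vertical axes, each with its own range) of Tfr2, Tfrc, Fth1 and Ftl1 in each liver, with livers labelled Plin2-ASO at left and control livers at right. Lines join the livers of 1 array and black bars give the mean ± SD; Tfr2 is higher and Tfrc, Fth1 and Ftl1 are lower at left on every array shown, and array 3 is missing for Ftl1.

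Beyond the 10 genes and the signalling lists above, other genes of iron and haem were read from lists. Over all 8 lists, 89 of 100 genes were tested, 6 rose and 9 fell, a share of 16.9% against 9.76% of all genes, with a median log2 ratio of -0.07. Of 8 genes of iron sensing and ferritin turnover, 1 was higher and none lower at an unadjusted p under 0.05. After adjustment 1 rose and none fell by limma, a share of 12.5% beside 9.76% of all genes. It was Aco1, the iron regulatory protein that doubles as cytosolic aconitase (ratios 0.72, 0.63, 1.13 and 0.48, mean 0.74 ± 0.15, adjusted p = 0.0265). With the mean of all its kept probes it was 0.39 (adjusted p = 0.0757), and with the scanning software's ratios its adjusted p was 0.0511. Ireb2, the other iron regulatory protein, averaged 0.38 ± 0.16 (adjusted p = 0.193) and Ncoa4, which delivers ferritin to lysosomes, 0.17 ± 0.16 (adjusted p = 0.551).

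Of 16 genes of iron uptake, transport and oxidation, 3 fell and none rose by limma, a share of 18.8% beside 9.76% of all genes. At an unadjusted p under 0.05, 5 were lower and 1 higher. Flvcr1, a carrier described as a haem exporter, had ratios of -1.32, -1.61, -0.51 and -1.69 (mean -1.28 ± 0.21, 2.43-fold lower, adjusted p = 0.0134). With the mean of all its kept probes it was -0.71 (adjusted p = 0.0134). Its relative Flvcr2 was lower by 1.32, 0.79, 1.86 and 0.74 on the log2 scale (mean -1.18 ± 0.21, adjusted p = 0.0169), and the metalloreductase Steap2 averaged -0.86 ± 0.16 (adjusted p = 0.0188). The call of Steap2 ended with the mean of its kept probes (-0.64, adjusted p = 0.0747) and with unpaired channels (0.0506), and that of Flvcr2 with the scanning software's ratios (0.0533). Transferrin (Trf), the plasma carrier made by hepatocytes, was lower on all 4 arrays but did not pass (mean -0.44 ± 0.14, adjusted p = 0.0965). The ferroxidase ceruloplasmin (Cp) averaged -0.49 ± 0.17 (adjusted p = 0.117) and Slc39a14, which imports iron not bound to transferrin, 0.45 ± 0.20 (adjusted p = 0.20).

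Haem genes moved in both directions. Of 8 haem synthesis genes, 2 rose and none fell by limma, a share of 25% beside 9.76% of all genes. At an unadjusted p under 0.05, 2 were higher and 1 lower. Alas2, the erythroid form of the first enzyme and also in the erythroid marker list, rose (1.21 ± 0.20, 2.32-fold higher, adjusted p = 0.0124). Alad, the second enzyme, rose too (0.74 ± 0.18, adjusted p = 0.0469). Alad lay at the threshold and lost the call under 6 of the 9 other settings that kept all arrays (adjusted p = 0.0503 to 0.103 in those). Alas1, the form that hepatocytes use, averaged 0.20 ± 0.16 (adjusted p = 0.479). Of 8 genes of haem breakdown and scavenging, 1 rose and 2 fell by limma, a share of 37.5%. At an unadjusted p under 0.05, 2 were higher and 2 lower. The plasma proteins that catch free haemoglobin and haem were lower: haptoglobin (Hp) had ratios of -1.53, -1.38, -2.25 and -0.54 (mean -1.43 ± 0.26, adjusted p = 0.0181), and hemopexin (Hpx), measured on 3 arrays, had -1.24, -1.31 and -1.18 on arrays 1, 3 and 4 (adjusted p = 0.00773). Cd163, the macrophage receptor for haptoglobin bound to haemoglobin, was higher by 3.01, 2.79, 3.91 and 2.61 on the log2 scale (8.46-fold, adjusted p = 0.00143). Hmox1, the enzyme that opens the haem ring, had ratios of -0.90, -0.88, -0.28 and 0.42 and did not pass (adjusted p = 0.306).

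Cd163 is also a marker of resident macrophages, which recycle iron. Of 12 macrophage markers, 11 were tested. By limma 4 rose (Clec4f, Vsig4, Marco and Cd163) and 4 fell (Csf1r, C1qb, Cd68 and Cd5l). This was a share of 72.7%, beside 9.76% of all genes. Over the 9 measured on every array, the summed signal was 48025 to 77949 (Plin2-ASO label) and 86359 to 151339 (control). That sum leaves out Clec4f and Marco (mean log2 ratios 2.37 and 2.48), each missing on 1 array. Its brightest gene was Cd5l (-1.02), so the sum does not stand for the markers as a set. The part of macrophages in the values of Cd163, Hmox1 and Slc40a1 was not tested. Of 15 genes of iron-sulfur cluster assembly, 1 rose and none fell by limma, a share of 6.67% beside 9.76% of all genes. At an unadjusted p under 0.05, 4 were higher and 1 lower. The gene that rose was the electron carrier Fdx1 (0.89 ± 0.22, adjusted p = 0.0495). It lost the call under 7 of those 9 settings (adjusted p = 0.0503 to 0.0702). Of the genes named from these lists as passing, Cd163 kept an adjusted p under 0.05 with each array left out in turn. Hpx, with 3 arrays, could not be fitted with any of its own arrays left out. The others lost the call without array 1, without array 2 or in each of these fits. Bmp7, Tyk2, Alad and Steap2 lost it without array 4 too (adjusted p = 0.0551, 0.0933, 0.14 and 0.0567 by limma).

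**Figure D5:**
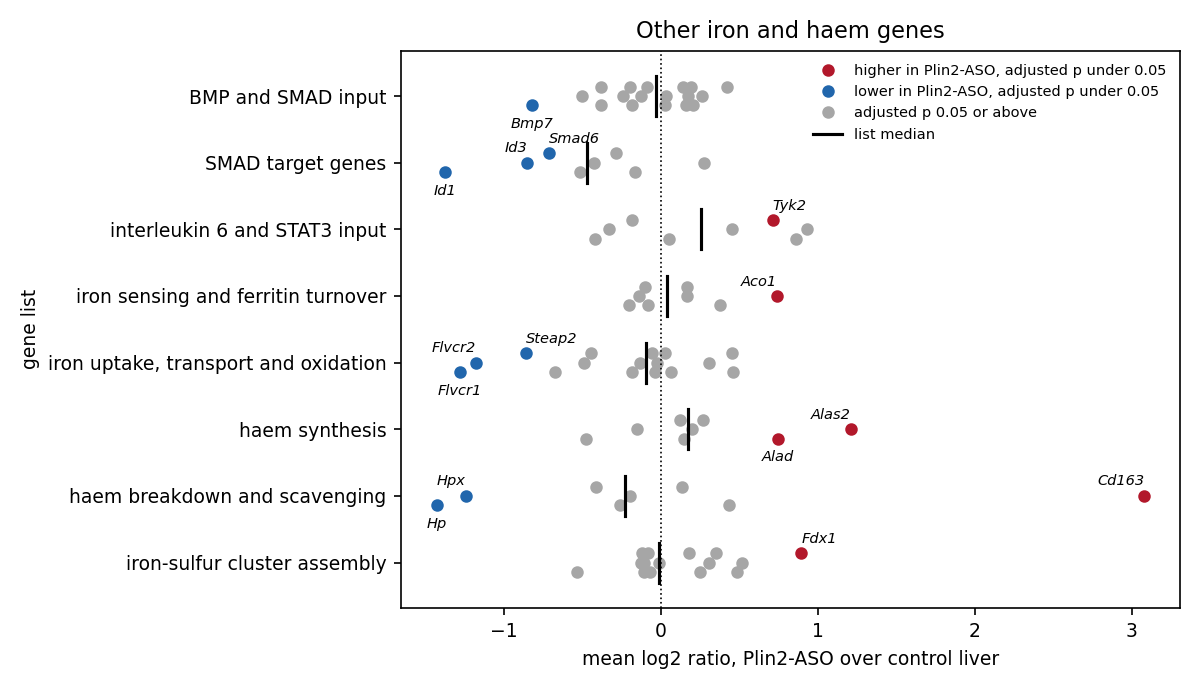
Mean log2 ratio of the livers labelled Plin2-ASO over the control livers (horizontal axis) for each tested gene of 8 iron and haem lists (rows), with the list median as a black line. Named points passed at an adjusted p under 0.05, red where higher and blue where lower in the livers labelled Plin2-ASO; small vertical offsets separate points. Most genes lie within 0.5 of 0, and the SMAD target genes have the lowest list median, -0.47.

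The genes whose levels over the 8 livers were most like those of Hamp, by Pearson's r of normalized log2 signal among 16133 genes measured on every array, were Cpne8 (r = 0.98), Pabpc1 (0.97), Pdlim3 (0.96), Rpl22 (0.96) and Ppig (0.96). The 8 values include the difference between the groups and share 4 arrays. None of these genes passed (adjusted p = 0.105 to 0.383), and their mean log2 ratios were -0.71 to -0.22, smaller than that of Hamp.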

How the data were processed

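The authors deposited 4 scanner files with a mean intensity and a median background intensity for each spot and dye, extracted with Feature Extraction 9.5.1.1 per the file headers, and log10 ratios (red over green) from the same software, which had subtracted background and normalized the dyes. The series table, with 4 columns of samples, was not used. Intensities were corrected with normexp (offset 50) and normalized by loess in limma 3.58.1 (R 4.3.3, version 1.17.8 of data.table), with the sign turned to livers labelled Plin2-ASO over control. Of 45018 spots, 1639 controls were removed, outlier spots were treated as missing and replicate spots averaged. Probes had to be well above background on at least 3 of 4 arrays in 1 channel, and a gene was its brightest such probe measured on at least 3 arrays. No spot was saturated, and the number of arrays limits precision. Current symbols came from RefSeq GRCm38.p6 (22951 probes by accession, 6659 by symbol, and the rest by older symbol or left as named). Each mean ratio was tested against 0 with lmFit and eBayes (two-sided, at most 7.22 degrees of freedom, with fewer for genes on 3 arrays). All genes were adjusted together with Benjamini-Hochberg at 0.05, intervals are at 95%, and the p-values measure the spread between 4 pairs of mice. Levels per liver come from Aquantile scaling after loess. The pairing comes from the shared array. Named list genes were those passing with 1 sign on every array (the 4 smallest p in a list) and 19 chosen by role. The 10 genes, the lists and the tests were chosen with earlier results of these data known. Alternatives were no background correction, median centring, the ratios of the software, other background filters, the mean of probes, outlier spots kept, a trended robust eBayes, unpaired channels and each array left out.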

Additional observations from a re-analysis of the deposited data

Results flagged for a closer look

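Among 39 genes named from the iron lists, 111 groups of 4 values (the log2 ratios, the levels in livers labelled Plin2-ASO and the levels in control livers) were searched for a value far from the others, and 7 were found; chance gives about 1 in 20. The measure is the gap to the nearest value as a share of the whole range. Array 3, or its mouse 9 labelled Plin2-ASO, held the odd value in 5 of them. Hamp2 had a level of 13.67 in mouse 9 against 12.01 to 12.16 in the other livers labelled Plin2-ASO (0.908), Slc40a1 had 12.42 against 11.66 to 11.76 (0.864), and Smad7 had 9.79 against 8.94 to 9.04 (0.877). The log2 ratio of Id1 on array 3 was -0.32 against -1.75 to -1.72 on the others (0.978), and that of Trf was -0.77 against -0.37 to -0.30 (0.846). Array 4 held the odd log2 ratio of Tmprss6, -0.27 against 0.26 to 0.36 (0.842), and of Atoh8, 0.45 against -0.43 to -0.31 (0.862).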

How the results depend on the processing

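With the scanning software's ratios 0 of the 10 genes passed (1 higher and 3 lower at an unadjusted p under 0.05); under the other settings that kept all arrays 2 or 3 passed. Leaving out each array in turn gave 0 to 4 of the 10 genes, 1 to 27 of the iron and haem list genes and 343 to 5788 of all genes, lowest without array 1 or 2 and highest without array 3; the cause was not tested. Treating the channels as independent samples, with no replicate block for the pairing on an array, gave 2, 15 and 1823, with Tfr2 passing and Tfrc not (adjusted p = 0.0316 and 0.0946). Signs turned, never past the threshold, for Hamp2 (-0.059 without array 3, to 0.802 without array 1), Slc40a1 (-0.257 without array 3, 0.034 without array 2), Slc11a2 (-0.15 without array 4, 0.153 without array 2, -0.044 with the mean of its probes) and Stat3 (-0.084 without array 1, -0.075 without array 4, 0.328 without array 3); the cause was not tested. Ftl1 could not be fitted without array 1, 2 or 4, having then fewer than 3 arrays.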
